A study of Mus musculus with 12 samples.

Results

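The genes described here were 10 mouse genes of prostaglandin synthesis, breakdown and signalling, namely Pla2g4a, Ptgs1, Ptgs2, Ptges, Ptgds, Ptgis, Alox5ap, Hpgd, Ptger2 and Ptger4. They were taken by gene symbol, from a list drawn up with earlier results of these data known, out of the 32285 genes of a retina count table and the 55401 genes of a table of cultures labelled brain microvascular pericytes. Each symbol matched 1 row in each table. All 10 passed the low-count filter in the retina, among 15440 genes tested, and 8 passed it in the cultures, among 16975 tested. Hpgd and Ptger2 did not pass in the cultures.

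The study sequenced total RNA of 12 libraries from wild-type (WT) mice, 3 in each of 4 groups. One retina group had optic nerve crush (ONC in the labels) and received MSC.sEV, small extracellular vesicles from mesenchymal stem cells, marked i.o. with no further explanation. Its control had the same crush with phosphate-buffered saline (PBS), and both were taken on day 1. The cultures, marked P4, received the vesicles or PBS for 12 hours. Every retina library was therefore labelled as injured. The retina columns carry 2 short names that were assigned to crush with vesicles and crush with PBS by inference, so the direction of each retina difference depends on that assignment. If the control columns came from uninjured eyes, each difference would contain the effect of the crush as well. Nothing in the labels ties each library to an animal or culture of its own, so p-values measure the spread between these libraries, which may be technical.

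Prostaglandins are short-lived lipid signals made from arachidonic acid. Cytosolic phospholipase A2 (Pla2g4a) releases the fatty acid from membranes, the cyclooxygenases convert it to prostaglandin H2, and terminal synthases turn that into prostaglandin E2 (Ptges), prostaglandin D2 (Ptgds) or prostacyclin (Ptgis). Ptgs1 encodes the cyclooxygenase that most tissues keep at a steady level, and Ptgs2 the form that many cells induce during inflammation. Hpgd begins the breakdown of prostaglandins, Ptger2 and Ptger4 encode receptors of prostaglandin E2 that raise cyclic AMP, and Alox5ap passes arachidonic acid to the 5-lipoxygenase of the leukotriene branch.

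Promoters are shown for the genes on which the comparisons below turn, the cyclooxygenase pair with Ptges and Pla2g4a. They run 5′ to 3′ on the strand of the gene, with 250 bases before the start and 30 bases from the start on, taken from RefSeq on GRCm38.p6. Capitals mark matches to the motifs searched. The windows are chr1:150099781-150100060 (+) for Ptgs2, chr2:30903268-30903547 (-) for Ptges, chr1:149961261-149961540 (-) for Pla2g4a, at 1 of its 2 RefSeq starts, and chr2:36230176-36230455 (+) for Ptgs1. The Ptges window, at its RefSeq start, lies inside the gene span given below and not at the 5′ end of that span.
Ptgs2: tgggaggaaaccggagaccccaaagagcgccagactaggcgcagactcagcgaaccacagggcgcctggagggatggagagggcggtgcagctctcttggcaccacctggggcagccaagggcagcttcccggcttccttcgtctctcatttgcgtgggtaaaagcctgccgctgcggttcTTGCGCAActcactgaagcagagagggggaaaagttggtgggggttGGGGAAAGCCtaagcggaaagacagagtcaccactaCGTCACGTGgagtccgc
Ptges: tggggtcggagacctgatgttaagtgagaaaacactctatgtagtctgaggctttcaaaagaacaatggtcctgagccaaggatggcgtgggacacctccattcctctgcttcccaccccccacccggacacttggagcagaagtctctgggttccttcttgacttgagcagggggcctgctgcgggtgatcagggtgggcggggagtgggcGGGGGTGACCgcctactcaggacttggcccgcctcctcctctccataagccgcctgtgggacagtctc
Pla2g4a: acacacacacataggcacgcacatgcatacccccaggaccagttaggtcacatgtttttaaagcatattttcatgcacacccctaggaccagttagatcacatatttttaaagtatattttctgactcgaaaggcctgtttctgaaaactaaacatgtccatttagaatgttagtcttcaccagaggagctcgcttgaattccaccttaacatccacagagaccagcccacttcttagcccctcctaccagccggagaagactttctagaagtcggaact
Ptgs1: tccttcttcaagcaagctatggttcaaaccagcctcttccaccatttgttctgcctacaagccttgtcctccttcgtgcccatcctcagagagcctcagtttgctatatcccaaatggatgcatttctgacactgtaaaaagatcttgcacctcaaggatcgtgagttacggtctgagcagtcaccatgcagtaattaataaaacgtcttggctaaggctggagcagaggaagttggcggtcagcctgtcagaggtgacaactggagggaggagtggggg

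The motifs searched, on both strands, were NF-kB (3 G, any 5 bases and 2 C), a short C/EBP site (TTGCNNAA), a short CRE site (TGACG), AP-1 (TGANTCA), an E-box (CACGTG) and a TATA box (TATAAA). In the Ptgs2 promoter the NF-kB letters lay 23 to 14 bases before the start and the C/EBP letters 69 to 62 bases before it, where they read the same on both strands. The CRE letters lay on the minus strand at bases 14 to 18 from the start on, and overlapped the E-box at bases 17 to 22. In the Ptges promoter the NF-kB letters lay 38 to 29 bases before the start. The windows of Pla2g4a and Ptgs1 held none of the 6 motifs. Among 32851 RefSeq promoters of the same length, 48.9% held the NF-kB letters, 10.4% the C/EBP letters, 19.9% the CRE letters, 7.46% the AP-1 letters, 6.79% the E-box and 13.1% the TATA box, so the NF-kB letters alone are common. Of the other 4 members with a RefSeq promoter, Ptgds held NF-kB and AP-1 letters, Ptger4 held NF-kB letters, Hpgd a TATA box after its start, and Ptger2 none. No binding was measured in these libraries.

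On the GRCm38 reference (GENCODE M21), Ptgs2 spans chr1:150100031-150108227 (+) and Pla2g4a chr1:149829618-149961290 (-), so the cyclooxygenase and the phospholipase that feeds it lie 138.7 kb apart. Ptges spans chr2:30889471-30929863 (-), Ptgs1 chr2:36230426-36252272 (+), and Alox5ap chr5:149264767-149288153 (+). The kit's strand setting was not stated, so reads cannot be told apart where exons of opposite strands overlap. That concerns 156 bases of Ptgis shared with 1110018N20Rik and 82 bases of Ptger4 shared with Ttc33. These neighbours had 2989 and 8080 counts in the retina and 13 and 5780 counts in the cultures. Gm17173 over Ptger2 and Gm19719 over Alox5ap had 23 counts each in the retina, and 22 and 4 in the cultures. Gm43621 over Ptgs1, Gm49364 over Ptger2 and Gm15937 over 1015 bases of Ptger4 had 0 counts in the cultures. No retina count was available for these last gene models. No annotated exon overlapped those of Ptgs2, Ptges, Ptgds, Hpgd or Pla2g4a.

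Total counts were 15580024 to 16842926 per retina library and 33001248 to 37954077 per culture library. Levels are given as CPM, with each count divided by its scaled library total, and 3 counts in 1 library equal 0.178 to 0.193 CPM in the retina and 0.0790 to 0.0909 CPM in the cultures. Retina libraries carried rod transcripts as the label implies, with summed rod markers of 63210 to 76680 CPM with vesicles and 93730 to 98810 CPM with PBS. Lens crystallins and other lens transcripts made up 1.62%, 6.26% and 0.00989% of counts in vesicle libraries 1 to 3, against 0.602%, 0.0626% and 0.0547% in PBS libraries 1 to 3. In the culture libraries 8 of 11 mural markers were tested, and Kcnj8, Abcc9 and Des were under 1 CPM in every library. Acta2 averaged 587 CPM with vesicles and 572 CPM with PBS, and Pdgfrb 70.8 CPM with vesicles and 59.7 CPM with PBS. Notch3 and Cspg4 averaged 18.6 and 17.5 CPM with vesicles and 25.0 and 11.9 CPM with PBS. Mcam, Anpep and Vtn averaged 8.30, 4.12 and 4.05 CPM with vesicles and 8.87, 5.97 and 3.93 CPM with PBS. Rgs5 was low, at 0.891 CPM with vesicles and 0.283 CPM with PBS. The cultures also carried astrocyte markers (summed level 1075 to 1113 CPM with vesicles and 977 to 979 CPM with PBS). Oligodendrocyte-lineage markers summed to 227 to 263 CPM with vesicles and 307 to 323 CPM with PBS. Fibroblast and leptomeningeal markers other than Ptgds summed to 374 to 398 CPM with vesicles and 404 to 431 CPM with PBS, with Slc6a13 under 1 CPM in every library. The cultures are therefore called pericyte-labelled below. In bulk RNA, fewer cells of a type and less RNA per cell cannot be told apart.

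In the crushed retina, Ptgs2 rose about 20.7-fold with vesicles, and Pla2g4a and Alox5ap rose 2.22-fold and 2.27-fold. The other 7 members passed no test at adjusted p under 0.05. These 3 of 10 members called higher stand beside 10.7% of all tested genes called higher, and beside 15.9% called in either direction. No member was called lower, against 5.19% of all genes. The median log2 fold change was 1.12 over the 10 members and -0.015 over all genes tested.

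**Figure D1:**
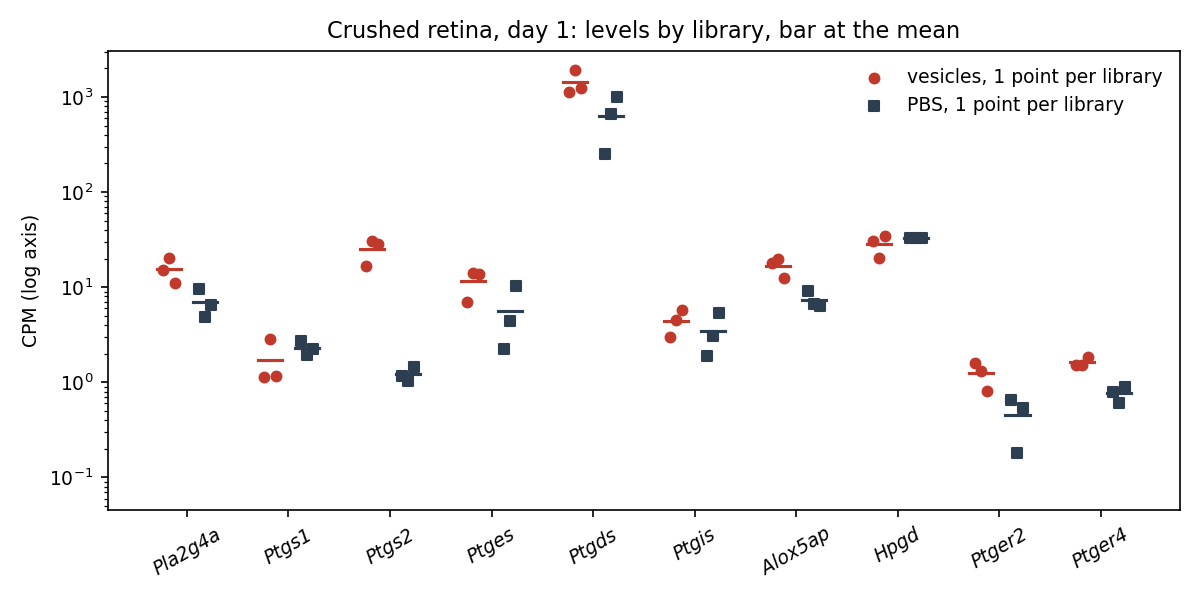
Level of each of the 10 genes in CPM (log axis) in crushed retina, with 1 point per library, vesicles (circles) left of PBS (squares), and a bar at the mean of 3 libraries. Ptgs2 sits between 16.9 and 30.8 CPM with vesicles and between 1.03 and 1.44 CPM with PBS, the widest gap between groups on this log axis, while the points of Ptgs1, Ptges, Ptgis and Hpgd overlap between groups.

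Pla2g4a, the first step of the pathway, was at 15.2, 20.04 and 11.1 CPM in the vesicle libraries and at 9.46, 4.86 and 6.55 CPM in the PBS libraries. All vesicle libraries lay above all PBS libraries, although vesicle library 3 and PBS library 1 came close to each other. The log2 fold change was 1.15 ± 0.29 (SE; edgeR quasi-likelihood test, adjusted p = 0.027). That call was lost without vesicle library 1 (adjusted p = 0.0799), vesicle library 2 (0.0926), PBS library 2 (0.0885) or PBS library 3 (0.0854), with log2 fold changes of 0.92 to 1.16 in those fits.

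The cyclooxygenases behaved differently from each other in the retina. Ptgs2 was at 16.9, 30.8 and 28.5 CPM in the vesicle libraries, against 1.18, 1.03 and 1.44 CPM in the PBS libraries. The PBS libraries lay close together at the bottom, and even the lowest vesicle library stood far above all of them. Its mean was 25.4 ± 7.45 CPM with vesicles and 1.22 ± 0.207 CPM with PBS (SD, n = 3 each), a log2 fold change of 4.37 ± 0.28 with adjusted p = 5.1e-05 by edgeR. It was called under all 11 alternatives, with log2 fold changes of 4.20 to 4.60, and its absolute change was larger than that of 99.2% of the genes tested.

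Ptgs1 was at 1.15, 2.85 and 1.17 CPM in the vesicle libraries and at 2.74, 1.95 and 2.22 CPM in the PBS libraries. The groups overlapped, because vesicle library 2 was the highest of the 6, and the log2 fold change was -0.42 ± 0.41 (edgeR, adjusted p = 0.54). Per kilobase of exon, the ratio of Ptgs2 to Ptgs1 was 12.5, 9.18 and 20.6 in the vesicle libraries and 0.364, 0.451 and 0.550 in the PBS libraries. Ptgs1 thus had the higher level of the pair in every PBS library, and Ptgs2 in every vesicle library.

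Among the terminal synthases, none was called in the retina. Ptges, the inducible prostaglandin E2 synthase, was at 7.07, 14.2 and 13.9 CPM with vesicles and at 2.22, 4.44 and 10.4 CPM with PBS, where PBS library 3 lay above vesicle library 1. Its log2 fold change was 1.04 ± 0.57 (edgeR, adjusted p = 0.29), but 1.81 ± 0.42 with adjusted p = 0.032 without PBS library 3. Ptgds was by far the most abundant member, at 1123, 1927 and 1243 CPM with vesicles and 253, 669 and 993 CPM with PBS. Its groups did not overlap, yet PBS libraries differed from each other by more than PBS library 3 differed from vesicle library 1, and the log2 fold change was 1.16 ± 0.57 (edgeR, adjusted p = 0.25). Ptgis, the prostacyclin synthase, overlapped between groups at 2.99, 4.49 and 5.74 CPM with vesicles and 1.89, 3.04 and 5.41 CPM with PBS (log2 fold change 0.35 ± 0.40, adjusted p = 0.59).

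Ptgds and Ptges varied between retina libraries along with the summed level of markers of the pigment epithelium, the cell layer behind the retina. The 7 markers of that layer (Rpe65, Best1, Lrat, Tyr, Pmel, Ttr and Mlana) summed to 1005, 2278 and 1737 CPM with vesicles and to 253, 601 and 1267 CPM with PBS, and none of the 7 was called. Most of that sum was Ttr, which averaged 1255 CPM with vesicles and 527 CPM with PBS. The order of libraries by the sum thus mainly reflects 1 gene. Ptges put the 6 libraries in the same order as that sum, PBS 1, PBS 2, vesicles 1, PBS 3, vesicles 3 and vesicles 2 from low to high. Ptgds differed from that order only in that vesicle library 1 lay above PBS library 3. Ptgis followed another order, with vesicle library 3 highest. Ptgs2 put the vesicle libraries in the order of the sum too, and PBS library 3 highest among the PBS libraries, but PBS library 2 lay below PBS library 1. Without the library richest in lens transcripts in each group (vesicle library 2 and PBS library 1), which are also the highest and the lowest in the marker sum, the log2 fold change was 0.52 ± 0.54 for Ptges and 0.52 ± 0.20 for Ptgds (edgeR, adjusted p = 0.62 and 0.18). Those libraries also held the highest vesicle level and the lowest PBS level of both genes. Leaving them out therefore had to lower both fold changes, whatever the marker content. The part of pigment epithelium cells in the levels of Ptges, Ptgds and Ptgs2 was not tested.

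**Figure D2:**
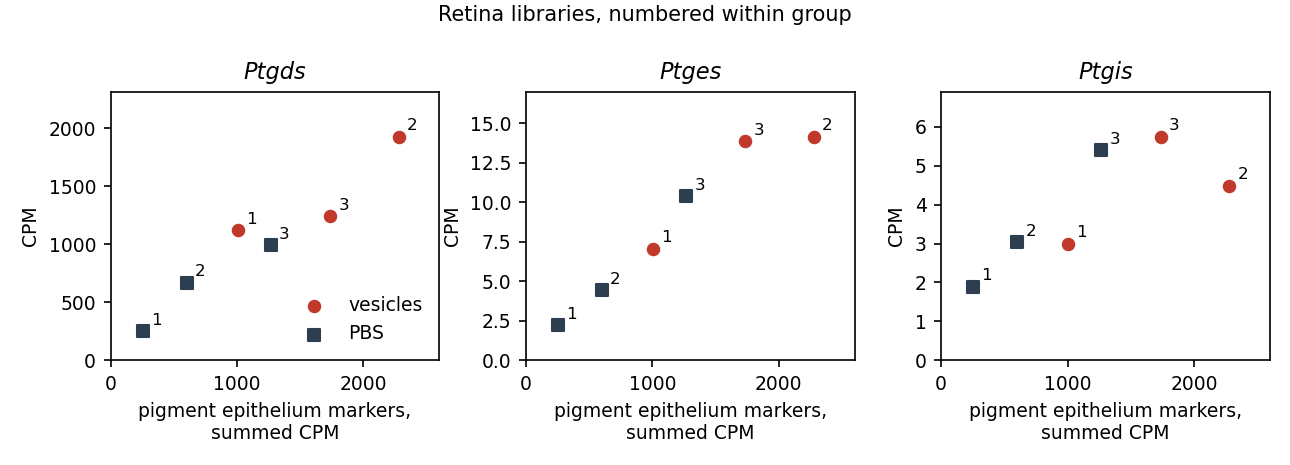
Level of Ptgds, Ptges and Ptgis (CPM, vertical) against the summed level of 7 pigment epithelium markers (CPM, horizontal) in the 6 retina libraries, with vesicles as circles and PBS as squares, each numbered by library within its group. Vesicle library 2 is highest and PBS library 1 lowest in the marker sum, most of which is Ttr, and both are so in Ptgds and Ptges too, whereas the highest Ptgis level is in vesicle library 3.

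Alox5ap was at 17.9, 19.9 and 12.6 CPM in the vesicle libraries and at 9.14, 6.69 and 6.37 CPM in the PBS libraries. Its groups did not overlap, and its mean was 16.8 ± 3.78 CPM with vesicles and 7.40 ± 1.52 CPM with PBS (SD, n = 3 each). The log2 fold change was 1.18 ± 0.22 (edgeR, adjusted p = 0.0063), called under all 11 alternatives. Hpgd, the enzyme of breakdown, was at 30.3, 20.2 and 34.7 CPM with vesicles and at 32.6, 33.3 and 33.0 CPM with PBS. The PBS libraries were nearly equal and the vesicle libraries lay on both sides of them, with a log2 fold change of -0.21 ± 0.18 (edgeR, adjusted p = 0.46).

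The prostaglandin E2 receptors were rare in the retina. Ptger4 was at 1.53, 1.52 and 1.85 CPM in the vesicle libraries and at 0.783, 0.608 and 0.901 CPM in the PBS libraries. Ptger2 was at 1.59, 1.33 and 0.803 CPM with vesicles, from 25, 21 and 13 counts, and at 0.653, 0.182 and 0.541 CPM with PBS, from 10, 3 and 9 counts. Neither gene overlapped between groups, but neither passed the test, with log2 fold changes of 1.09 ± 0.36 for Ptger4 (edgeR, adjusted p = 0.070) and 1.43 ± 0.52 for Ptger2 (adjusted p = 0.096). In all, 6 of the 10 members had no overlap between groups, against 35.7% of all genes tested, and in all 6 the vesicle libraries were the higher, against 19.5% of all genes.

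Markers of leukocytes moved with Ptgs2, Alox5ap and Pla2g4a in the retina. The 12 leukocyte and monocyte or macrophage markers were all called higher, and their summed level was 1233, 1238 and 853 CPM with vesicles and 111, 81.1 and 117 CPM with PBS. Of 8 tested neutrophil markers 7 were called higher, and that list summed to 651, 807 and 370 CPM with vesicles and to 25.2, 15.7 and 38.4 CPM with PBS. Most of the vesicle sum was S100a8 and S100a9, which averaged 194 and 286 CPM. The remaining tested marker, Ltf, went the other way (log2 fold change -1.05 ± 0.58, edgeR adjusted p = 0.27), and Camp and Ngp were under 1 CPM in every library. Vesicle library 3 was the lowest vesicle library in both lists, and likewise in Alox5ap and Pla2g4a, whereas Ptgs2 was lowest in vesicle library 1. Homeostatic microglia markers summed to 40.1 to 42.4 CPM with vesicles and to 67.8 to 73.0 CPM with PBS. The part of these cells in the 3 genes' levels was not tested.

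In the pericyte-labelled cultures, Ptges and Pla2g4a rose, 2.38-fold and 1.60-fold. These 2 of 8 tested members called higher stand beside 10.9% of all tested genes called higher, and 19.8% called in either direction. None was called lower, against 8.90% of all genes. The median log2 fold change was -0.26 over the 8 members and 0.001 over all genes tested. Pla2g4a was the 1 member called in both settings.

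**Figure D3:**
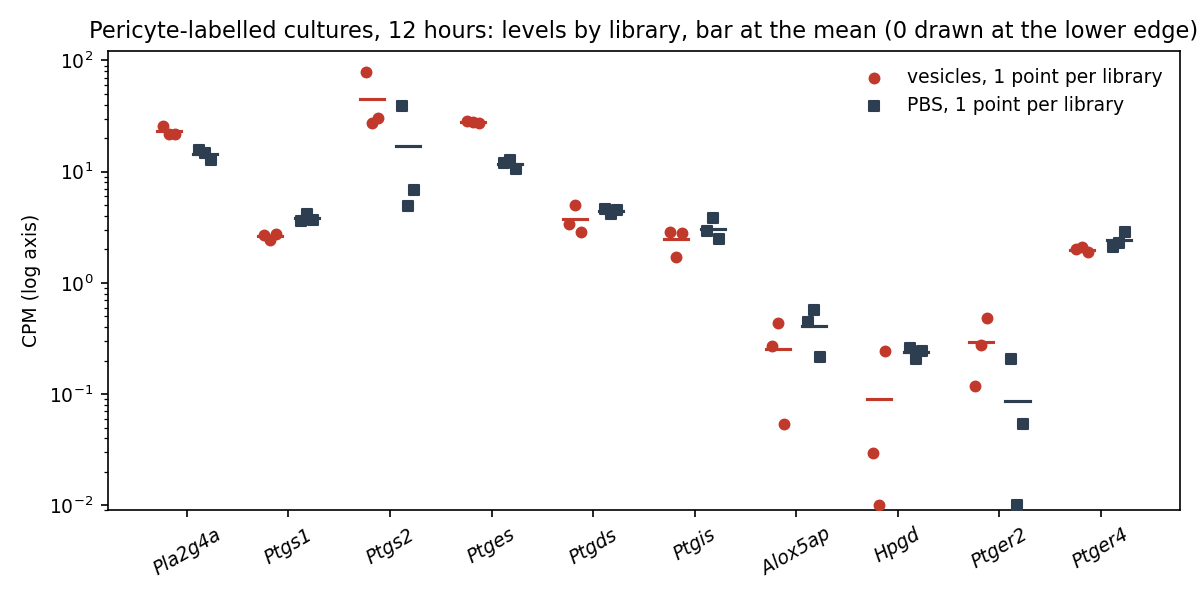
Level of each of the 10 genes in CPM (log axis) in pericyte-labelled cultures, with 1 point per library, vesicles (circles) left of PBS (squares), a bar at the mean of 3 libraries, and 0 drawn at the lower edge. Ptges and Pla2g4a form tight and separate groups, while the Ptgs2 points spread from 27.5 to 78.1 CPM with vesicles and from 4.96 to 39.3 CPM with PBS.

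Ptges was at 28.6, 27.7 and 27.5 CPM in the vesicle libraries and at 12.0, 12.7 and 10.5 CPM in the PBS libraries. Each group spanned little, and the lowest vesicle library lay far above the highest PBS library. The log2 fold change was 1.25 ± 0.10 (edgeR, adjusted p = 3.2e-09), called under all 10 alternatives. Pla2g4a was at 25.7, 21.6 and 21.7 CPM with vesicles and at 15.5, 14.8 and 12.8 CPM with PBS, again with no overlap. Its log2 fold change was 0.68 ± 0.11 (edgeR, adjusted p = 5.8e-05), also called under all 10 alternatives.

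Ptgs2 was at 78.1, 27.5 and 30.2 CPM in the vesicle libraries and at 39.3, 4.96 and 6.89 CPM in the PBS libraries. Library 1 was the highest of its group in both conditions, and PBS library 1 lay above vesicle libraries 2 and 3, so the groups overlapped. The log2 fold change was 1.39 ± 1.01 (edgeR, adjusted p = 0.48). Without PBS library 1 it was 2.92 ± 0.77 (adjusted p = 0.12), and without vesicle library 1 it was 0.75 ± 1.11 (adjusted p = 0.76). The size of the Ptgs2 difference in the cultures therefore depended on these libraries, and no fit that left out 1 library called it.

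Ptgs1 was at 2.69, 2.41 and 2.75 CPM with vesicles and at 3.58, 4.13 and 3.67 CPM with PBS. All vesicle libraries lay below all PBS libraries, with a log2 fold change of -0.54 ± 0.20 that missed the threshold (edgeR, adjusted p = 0.071). Per kilobase, the ratio of Ptgs2 to Ptgs1 was 24.7, 9.68 and 9.34 in the vesicle libraries and 9.30, 1.02 and 1.59 in the PBS libraries. It was above 1 in all 6, but at 1.02 in PBS library 2 the pair was nearly equal.

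The other synthases and the receptors were low in the cultures and none was called. Ptgds was at 3.37, 5.01 and 2.88 CPM with vesicles and 4.59, 4.13 and 4.56 CPM with PBS (log2 fold change -0.24 ± 0.21, edgeR adjusted p = 0.50). Ptgis was at 2.89, 1.70 and 2.80 CPM with vesicles and 2.96, 3.80 and 2.46 CPM with PBS (log2 fold change -0.32 ± 0.25, adjusted p = 0.46). Both overlapped between groups. Ptger4 was at 2.00, 2.08 and 1.89 CPM with vesicles and 2.10, 2.29 and 2.89 CPM with PBS, just without overlap, and its log2 fold change was -0.29 ± 0.25 (adjusted p = 0.50). Of the 8 tested members 4 had no overlap between groups, against 33.8% of all genes tested. Of these, 2 (Ptgs1 and Ptger4) had every vesicle library below every PBS library, against 16.4% of all genes, and 2 (Ptges and Pla2g4a) had every vesicle library above, against 17.4%.

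Alox5ap, Hpgd and Ptger2 were near the limit of detection in the cultures. Alox5ap had 9, 16 and 2 counts in the vesicle libraries and 17, 19 and 8 counts in the PBS libraries (log2 fold change -0.68 ± 0.69, edgeR adjusted p = 0.59). Hpgd had 1, 0 and 9 counts with vesicles and 10, 7 and 9 counts with PBS, and Ptger2 had 4, 10 and 18 counts with vesicles and 8, 0 and 2 counts with PBS. These counts overlapped between groups, and in the fit with no filter Hpgd and Ptger2 had adjusted p = 0.55 and 0.39, so no difference was detectable at this depth. Leukocyte markers in the cultures summed to 192, 151 and 133 CPM with vesicles and to 102, 106 and 101 CPM with PBS, with 4 of 11 tested called higher (Adgre1, Cd14, Ptprc and Spi1) and Ccr2 at 0 in all libraries. Endothelial markers summed to 85.8 to 93.5 CPM with vesicles and to 58.5 to 58.9 CPM with PBS, with Cldn5 at 0 and Pecam1, Tek, Tie1 and Erg under 1 CPM in every library. Their members went both ways, as Flt1 averaged 78.5 CPM with vesicles and 44.3 CPM with PBS (edgeR, adjusted p = 4.2e-09), and Kdr 1.49 CPM with vesicles and 4.73 CPM with PBS (adjusted p = 1.1e-05). The part of leukocytes and endothelial cells in the levels of Ptges and Pla2g4a was not tested.

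**Figure D4:**
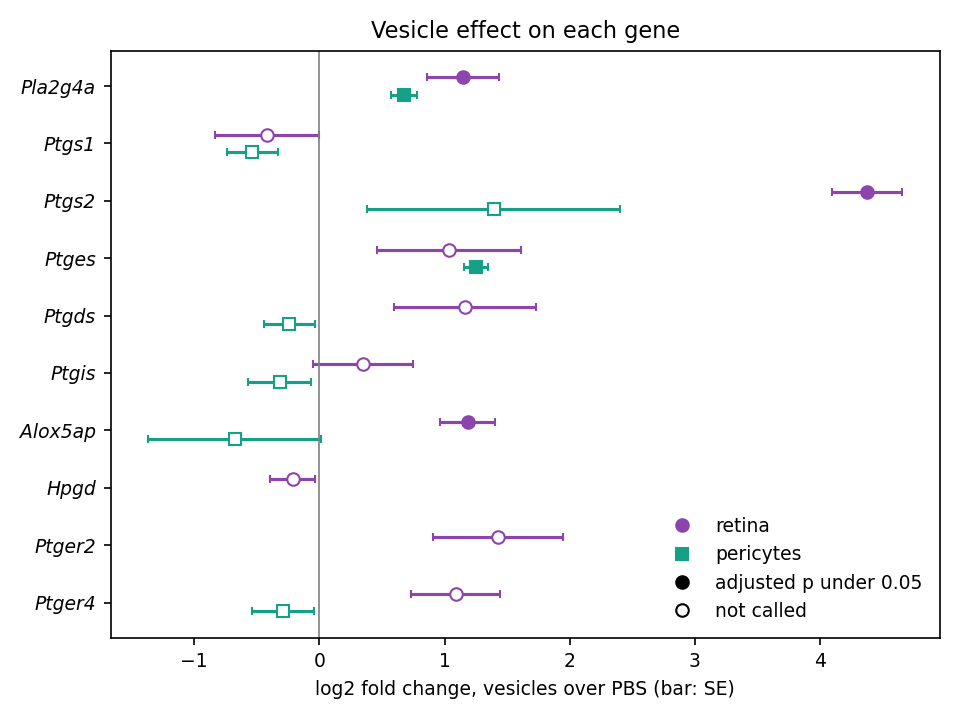
Log2 fold change of vesicles over PBS for each gene in retina (circles, upper of each pair) and pericyte-labelled cultures (squares, lower), with bars of 1 SE and filled symbols where adjusted p was under 0.05. Ptgs2 in the retina stands at 4.37, the other filled symbols lie between 0.68 and 1.25, and Hpgd and Ptger2 have no culture symbol because they were not tested there.

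Whether the vesicle effect differed between the settings was tested directly in 1 limma fit over all 12 libraries, as the retina effect minus the culture effect. None of the 8 members tested in both tables was called, beside 12.0% of the 13712 genes tested, 7.53% with the higher effect in the retina and 4.48% with the higher effect in the cultures. Of the 8, Alox5ap and Ptger4 had the lowest p-values in that limma fit. Alox5ap differed by 2.12 ± 0.72 log2 (limma, adjusted p = 0.069) and Ptger4 by 1.35 ± 0.45 (adjusted p = 0.066). For both, the retina values were higher with vesicles while the culture values had a negative log2 fold change that was not called. Under the alternatives the Alox5ap difference ran from 1.29 to 2.68 and was called in 3 of 15. It passed the threshold without retina vesicle library 3 (2.31, adjusted p = 0.026) or culture vesicle library 2 (2.68, adjusted p = 0.046), and was 1.29 without culture vesicle library 3 (adjusted p = 0.22). That of Ptger4 ran from 1.197 to 1.473 and was called in 1 of 15, the fit with no weight per table (1.35, adjusted p = 0.039).

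The Ptgs2 difference had the widest error of the 8, at 2.52 ± 2.06 log2 (limma, adjusted p = 0.49), and was 1.56 without culture PBS library 1. Its rise was called in the retina and not in the cultures, and this test did not call the difference. For Ptges, called in the cultures alone, the estimated difference was -0.03 ± 0.43 (adjusted p = 0.98). For Pla2g4a, called in both, it was 0.49 ± 0.31 (adjusted p = 0.36). Ptgds (1.61 ± 0.77, adjusted p = 0.20, and 2.03 with adjusted p = 0.046 without retina PBS library 3), Ptgis (0.75 ± 0.50) and Ptgs1 (0.002 ± 0.43) were not called either.

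Levels were ranked per kilobase of exon within each table. In vesicle-treated retina the order was Ptgds (868 ± 263 CPM per kb), Hpgd (16.9 ± 4.41), Alox5ap (11.8 ± 2.66), Ptgs2 (5.54 ± 1.63), Ptges (2.98 ± 1.02), Pla2g4a (2.42 ± 0.70), Ptgis (1.72 ± 0.54), Ptgs1 (0.443 ± 0.251), Ptger4 (0.246 ± 0.0286) and Ptger2 (0.239 ± 0.0775). Neighbours whose mean ± SD ranges did not overlap were Ptgds and Hpgd, Alox5ap and Ptgs2, and Ptgis and Ptgs1. In PBS retina Ptgds (387 ± 225 CPM per kb), Hpgd (19.6 ± 0.206) and Alox5ap (5.21 ± 1.07) led in the same order, while Ptgs2 was 8 in rank at 0.266 ± 0.0452 CPM per kb, below Ptgs1 at 0.593 ± 0.104.

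The cultures had another order. With vesicles, Ptgs2 (9.88 ± 6.21 CPM per kb) and Ptges (7.10 ± 0.151) led with overlapping ranges, followed by Pla2g4a (3.60 ± 0.368), Ptgds (2.28 ± 0.676) and Ptgis (0.960 ± 0.259). With PBS, Ptgs2 (3.72 ± 4.21) and Ptges (2.98 ± 0.281) had the highest means again, followed by Ptgds (2.69 ± 0.157) and Pla2g4a (2.25 ± 0.217). In libraries 1 to 3, Ptgs2 was at 17.04, 6.004 and 6.603 CPM per kb with vesicles and at 8.572, 1.083 and 1.503 with PBS. Libraries 2 and 3 lay below the Ptges mean in both conditions, and with PBS below the Ptgds and Pla2g4a means too. The first rank of Ptgs2 therefore rested on library 1. By mean level, Ptgs2 and Ptges were the highest of the 10 in the cultures, and Ptgds in the retina.

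The profile of Ptgs2 over the 12 libraries, centred within each table, was compared with those of 13711 other genes by root-mean-square distance on the log2 scale. The 5 nearest were Il18rap (0.57), Bcl2a1d (0.62), Cd14 (0.67), Angptl4 (0.71) and Jaml (0.71). Cd14, a co-receptor for bacterial lipopolysaccharide, had log2 fold changes of 4.22 ± 0.28 in the retina and 1.57 ± 0.12 in the cultures, and Angptl4, a secreted inhibitor of lipoprotein lipase, had 4.13 ± 0.41 and 2.16 ± 0.13. Unlike Ptgs2, all 5 were called in both settings (edgeR, adjusted p of 2.2e-05 to 0.0014 in the retina and 7.2e-11 to 0.038 in the cultures). Because the 5 were picked for likeness to Ptgs2 over these same libraries, a large retina rise was part of the choice. Their calls are therefore a description and not a separate result. Bcl2a1d belongs to a group of near-identical copies, so its reads may be shared.

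The wider pathway was followed in 40 other genes of prostaglandin, thromboxane and leukotriene metabolism. In the retina 27 were tested, of which 6 were called higher and 2 lower, beside 10.7% and 5.19% of all genes. The median log2 fold change was 0.21, against -0.015 over all genes. Ptgfr, the receptor of prostaglandin F2alpha, was at 11.5, 7.33 and 9.45 CPM with vesicles and at 1.96, 0.912 and 1.26 CPM with PBS (log2 fold change 2.77 ± 0.33, edgeR adjusted p = 0.00067). Of the 4 leukotriene receptors on the list 2 were tested, and both rose, while Cysltr2 and Ltb4r2 had 3 and 4 counts over the vesicle libraries and 3 and 13 counts over the PBS libraries. Cysltr1, which binds cysteinyl leukotrienes, was at 5.42, 5.25 and 3.09 CPM with vesicles and 0.522, 0.790 and 0.541 CPM with PBS (2.87 ± 0.37, adjusted p = 0.0011), and Ltb4r1, which binds leukotriene B4, at 3.38, 3.48 and 1.24 CPM with vesicles and 0.196, 0.182 and 0.300 CPM with PBS (3.53 ± 0.54, adjusted p = 0.0026). In none of the 3 receptor genes did the groups overlap.

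Alox5, the 5-lipoxygenase that Alox5ap serves, averaged 1.53 ± 0.562 CPM with vesicles and 0.414 ± 0.0464 CPM with PBS (log2 fold change 1.87 ± 0.44, edgeR adjusted p = 0.019). That call was lost without vesicle library 1 or 2 or PBS library 2 or 3 and when both lens-rich libraries were left out (adjusted p of 0.0549 to 0.111). Ptgr1, a reductase that inactivates leukotriene B4 and prostaglandin metabolites, averaged 8.63 ± 2.32 CPM with vesicles and 3.19 ± 0.495 CPM with PBS (1.43 ± 0.27, adjusted p = 0.0064, and 0.0505 without the lens-rich libraries). Ptges3, the co-chaperone p23, also described as a cytosolic prostaglandin E synthase, averaged 160 ± 7.46 CPM with vesicles and 114 ± 2.35 CPM with PBS (0.50 ± 0.08, adjusted p = 0.0042). The 2 that fell were the secreted phospholipase Pla2g5 (-0.43 ± 0.09, adjusted p = 0.012) and Pla2g7, the hydrolase of platelet-activating factor (-0.39 ± 0.11, adjusted p = 0.039). Pla2g5 lost its call without vesicle library 1 (0.0729) or PBS library 2 (0.0624), and Pla2g7 lost it without any 1 library except vesicle library 3 (adjusted p of 0.0663 to 0.159) and without the lens-rich libraries (-0.24, 0.21).

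In the cultures 28 of the 40 were tested, of which 4 were called higher and 3 lower, beside 10.9% and 8.90% of all genes and 19.8% called in either direction. The median log2 fold change was 0.09, against 0.001 over all genes. Slco2a1, the transporter that takes prostaglandins into cells, was at 138, 130 and 135 CPM with vesicles and at 46.2, 39.1 and 37.6 CPM with PBS. It had the lowest p of the list, with a log2 fold change of 1.71 ± 0.07 and adjusted p = 1.2e-13 by edgeR. Ptgir, the prostacyclin receptor, was at 1.19, 1.26 and 1.16 CPM with vesicles and 0.259, 0.178 and 0.324 CPM with PBS (2.22 ± 0.48, adjusted p = 0.0020). Neither gene overlapped between groups.

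Smaller culture differences were those of Ptges2, a membrane-associated prostaglandin E synthase (log2 fold change 0.49 ± 0.09, edgeR adjusted p = 0.00036), and Anxa1, a protein described as restraining phospholipase A2 (0.23 ± 0.06, adjusted p = 0.015), which was no longer called without PBS library 1 (0.101) or PBS library 2 (0.0559). Ptgr1 fell in the cultures, where it averaged 34.3 ± 3.36 CPM with vesicles and 42.9 ± 1.08 CPM with PBS (-0.33 ± 0.08, adjusted p = 0.0051). Mgll, a lipase that also releases arachidonic acid from 2-arachidonoylglycerol, fell as well (-0.28 ± 0.05, adjusted p = 0.00062). Pla2g5 averaged 1.94 ± 0.365 CPM with vesicles and 3.66 ± 0.358 CPM with PBS (-0.92 ± 0.23, adjusted p = 0.0059), and was thus lower in both settings.

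**Figure D5:**
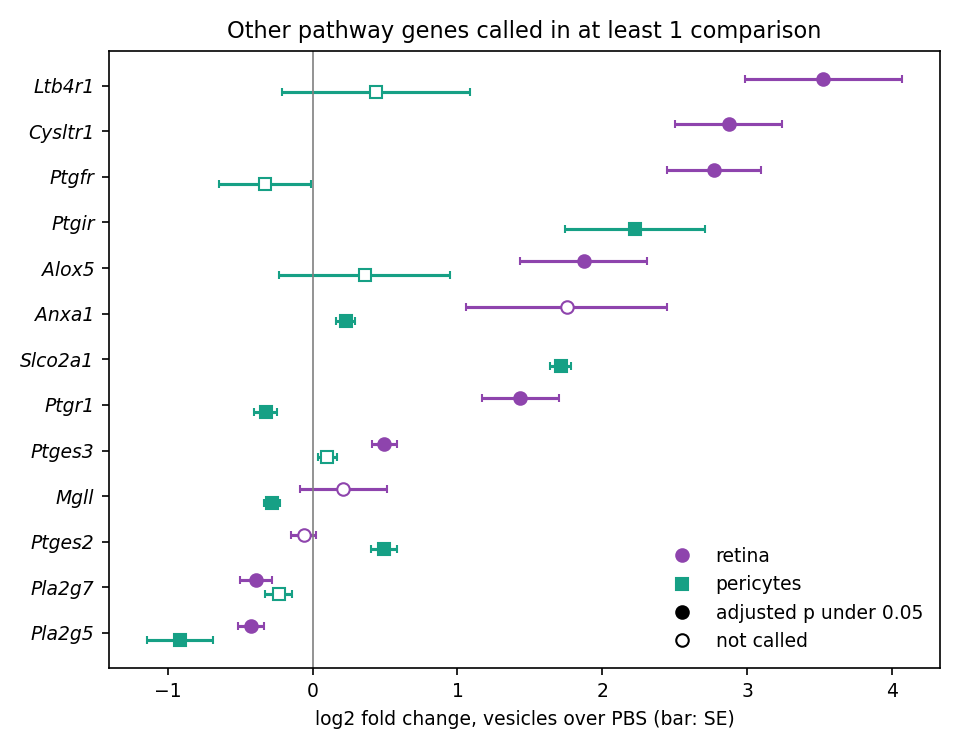
Log2 fold change of vesicles over PBS for the 13 other pathway genes called in at least 1 setting, in retina (circles, upper of each pair) and pericyte-labelled cultures (squares, lower), with bars of 1 SE and filled symbols where adjusted p was under 0.05. The receptors Ltb4r1, Cysltr1 and Ptgfr lie between 2.77 and 3.53 in the retina, Slco2a1 and Ptgir lie at 1.71 and 2.22 in the cultures, Ptgr1 is filled on opposite sides of 0, and 3 genes have 1 symbol because they were tested in 1 setting.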

How the data were processed

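Total RNA of 12 mouse libraries was measured, and the authors deposited whole-number read counts per gene in 1 table for the retina and 1 for the cultures. Per the submitters' processing notes, the tools were FastQC 0.11.8, HISAT2 2.0.5, featureCounts 1.5.0-p3 and limma with no version. The alignment build and strand setting are not given in the sources used here. Positions come from GENCODE M21 on GRCm38 by gene ID. Culture columns matched sample descriptions, and retina columns were assigned by inference. A series text on C3H10T1/2 knockdowns matched no sample.

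Each table was fitted alone in R 4.3.3 with edgeR 4.0.16 (filterByExpr with minimum count 10, TMM, robust quasi-likelihood F test, 2-sided, Benjamini-Hochberg over all genes tested, threshold 0.05, 4 residual degrees of freedom). SE was taken from the fold change and its F statistic. The difference between settings used limma 3.58.1 (voom with a weight per table) on 13712 genes. Both were also run on simulated counts with planted changes. Those counts held no gene-specific spread and no deviating library, so the runs do not bear on calls that depend on a single library. CPM used TMM-scaled totals, so their precision is limited by depth, and levels were not compared across tables. An exact permutation test of 3 against 3 cannot reach p under 0.1.

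The 10 members, the 40 pathway genes, the marker lists and the motifs were chosen with earlier results of these data known. All members are described, and called pathway genes are named up to 8 per comparison in order of p. Chi-squared per degree of freedom between replicates was at least 11.3 in the retina and 6.13 in the cultures, so no library was a copy. Alternatives were RLE scaling, DESeq2 1.42.0, no filter, leaving out each library, a replicate block, the retina without its lens-rich libraries, and the difference with no weight per table. RefSeq promoters were found for 8 of the 10 members.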

Additional observations from a re-analysis of the deposited data

Results flagged for a closer look

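For 6 of the 23 other pathway genes tested in both settings, beside 12.0% of all genes, the vesicle effect differed between retina and pericyte-labelled cultures in the limma test of the difference itself (retina effect minus culture effect, log2). Ptgfr, the prostaglandin F2alpha receptor, differed by 3.15 (adjusted p = 0.00058), with means of 9.42 ± 2.07 CPM with vesicles and 1.38 ± 0.533 CPM with PBS in the retina and of 1.34 ± 0.393 CPM with vesicles and 1.68 ± 0.256 CPM with PBS in the cultures (SD, n = 3 libraries each).

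Ptgr1 differed by 1.73 (adjusted p = 0.0025), as it rose in the retina and fell in the cultures. Ptgfr and Ptgr1 kept this call in all 15 alternative fits. Ltb4r1 differed by 2.97 (adjusted p = 0.035), Ptgfrn, a protein that binds to the Ptgfr receptor, by 0.95 (adjusted p = 0.043), and Ptges3 by 0.40 (adjusted p = 0.027), each with the higher effect in the retina. Ptges2 differed by -0.56 (adjusted p = 0.013), with the higher effect in the cultures. Those calls held in 6 of 15 alternative fits for Ltb4r1 and for Ptgfrn, in 10 for Ptges3 and in 14 for Ptges2. Ptgfrn passed the test in neither setting alone, with log2 fold changes of 0.83 ± 0.28 in the retina (edgeR, adjusted p = 0.076) and -0.13 ± 0.06 in the cultures (adjusted p = 0.17).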

How the results depend on the processing

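Over the 10 genes and all alternatives, 310 values were recomputed. Of these, 289 kept their direction and side of the threshold, 4 lost a call (Pla2g4a in the retina), 8 gained one and 9 reversed. The count of members called went no further than 2 to 4 of 10 in the retina and stayed at 2 in the cultures. Over all genes, leaving out 1 library left 1328 to 2909 called in the retina, against 2449 with all, and 1420 were called without the lens-rich libraries; fewer samples enter each of those fits. In the difference between settings, 0 members were called with all libraries, 0 to 1 when leaving out 1 library, and 1 with no weight per table (Ptger4). Reversals concerned differences near 0. That of Ptgs1 was 0.002 and became -0.003 with RLE scaling and -0.42 to 0.22 when leaving out 1 library, and that of Ptges was -0.03 and became -0.54 to 0.54. Why these values moved was not tested.

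Same-numbered libraries did not deviate together (correlations of 0.18, -0.19 and -0.06 in the retina and 0.03, 0.02 and -0.02 in the cultures), so over all genes the numbers were not taken as pairs, although Ptgs2 itself was highest in culture library 1 of both conditions. With a replicate block, 1919 genes and 4 members were called in the retina (Ptges added, 1.22, adjusted p = 0.037; among pathway genes Pla2g7 lost its call, -0.39, adjusted p = 0.057), 3287 genes and 2 members in the cultures, and 2 members in the difference (Ptgs2, 2.77, adjusted p = 0.032, and Alox5ap, 1.96, adjusted p = 0.023). Depth limits Ptger2, Hpgd and Alox5ap in the cultures, and Ptger2 in the PBS retina, where it had 3 to 10 counts per library.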

Other observations

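Library 1 of the pericyte-labelled cultures had the highest Ptgs2 level in both conditions. Its log2 level stood 1.37 above the next highest vesicle library and 2.50 above the next highest PBS library. Over the 16975 genes tested, 9 genes stood more than 1 log2 unit above both other libraries in library 1 of both conditions, against 3 for library 2 and 1 for library 3. Among the 14131 of these genes with a mean of at least 1 CPM, Ptgs2 was the 1 gene that did so in library 1, and no gene did so in library 2 or 3. This count was made after the Ptgs2 values were seen.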
